A study of Homo sapiens with 15 samples.

Results

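Dcp2 siRNA was set against a non-silencing siRNA in HEK293T cells, a transformed line derived from human embryonic kidney. The comparison rests on 6 of the 15 arrays of the series, 3 for each siRNA, chosen by the siRNA named in the sample labels, and covers 14884 named genes. All cells, controls included, received actinomycin D, a blocker of transcription, at 1 ug per mL for 4 hours, starting 48 hours after transfection, before total RNA was taken. The Dcp2 cells had been transfected with siRNA to the decapping enzyme Dcp2, and the other targeted groups, also 3 arrays each, with siRNA to LOC550643 (a pool of 4), DcpS or GAPDH. The non-silencing cells had been transfected with an siRNA that matches no human gene. Whether the 3 samples of a group were grown and transfected separately is not said in the labels, so the p-values reflect the spread among these arrays, part or all of which may be technical. How many different siRNAs made up the Dcp2 reagent is not given in the sources used here, so effects of the target and of a particular siRNA sequence cannot be told apart. In a bulk sample a change in the share of cells in some state and a change in RNA per cell also cannot be told apart.

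Dcp2 removes the cap from the start of an mRNA, after the tail at its other end has been shortened. The body is then degraded from the exposed end by the exonuclease Xrn1. Decapping factors gather with stalled mRNAs in cytoplasmic granules called P-bodies, and the pathway is known for the turnover of unstable mRNAs, among them those of immediate early genes. Transcript levels after actinomycin D depend both on the level before the drug and on decay during it. The submitters' design text says that, to their eye, effects on transcription outweighed effects on decay even so. The comparison asks which transcripts differ when Dcp2 is depleted.

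Values are probe set levels on a log2 scale, and a difference is the Dcp2 siRNA mean minus the non-silencing mean, where a difference of 1 is a doubling. All arrays had similar medians over the probe sets, between 4.01 and 4.08. Of the 9 measured markers of the HEK293 line 8 lay above the median gene, and markers of blood, endothelial, fibroblast, hepatocyte and other epithelial cells stood above it in 3 of 18 cases. Among the arrays of the comparison 1 library stood apart. Non-silencing replicate 1 differed from its group mates with an SD of 0.261 log2 units over the brighter genes, against 0.152 to 0.195 for the other 5 arrays of the comparison. In the other groups, which also enter the estimate of spread, DcpS siRNA replicate 1 came close, at 0.244. For 115 of the 156 genes that rose, non-silencing replicate 1 was the lowest of its group. It was the highest for 95 of the 138 that fell. Over all genes it was lowest in 36.4% and highest in 37.7%. Calls that depend on it are therefore given with and without it.

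DCP2, the targeted gene, was at 6.23, 6.42 and 6.36 log2 units in the Dcp2 siRNA arrays, against 7.98, 8.22 and 8.21 in the non-silencing arrays. The groups did not overlap, and 28.7% of the non-silencing level remained. The difference was -1.80 (SE 0.13, limma adjusted p = 3.15e-06), the largest fall among the genes that passed the test. DCP2 was likewise below the mean of the other 3 targeting siRNAs, by a difference of -1.84 (SE 0.10, limma adjusted p = 1.11e-07). Its level in the DcpS siRNA arrays was 7.60 ± 0.27 (SD, n = 3), lower than the 8.54 ± 0.13 with LOC550643 siRNA and the 8.40 ± 0.12 with GAPDH siRNA. Even against DcpS siRNA the difference was -1.26 (SE 0.13, limma adjusted p = 8.7e-05).

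At an adjusted p under 0.05, 294 genes differed between Dcp2 and non-silencing siRNA, which is 1.98% of the genes tested. Of these, 156 rose (1.05% of genes) and 138 fell (0.927%), shares to hold beside the counts of list members given below. Over all genes the median difference was 0.001, and 50.3% of genes had a positive one. The changes were small: 11 genes rose and 4 fell by more than 1 log2 unit, and 109 of the 294 differed by less than 0.5. Every one of the 294 had groups that did not overlap, but so did 22.8% of all genes. The count moved with single libraries. Leaving out non-silencing replicate 1 left 41, leaving out non-silencing replicate 2 left 70, and leaving out Dcp2 replicates 1, 2 and 3 left 63, 84 and 83, whereas leaving out non-silencing replicate 3 gave 393. With the 6 arrays fitted on their own it was 39, of which 36 were among the 294.

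Genes that differed between Dcp2 siRNA and the other targeting siRNAs were tested in the same fit. Against the mean of LOC550643, DcpS and GAPDH siRNA, 427 genes passed (2.87%), of which 189 were higher and 238 lower with Dcp2 siRNA. Against single siRNAs, 477 passed for LOC550643 (3.20%), 839 for DcpS (5.64%) and 415 for GAPDH (2.79%). These comparisons share the Dcp2 arrays with one another and with the comparison to non-silencing siRNA. Below, a difference from the other siRNAs is from their mean, and a gene can pass there without passing against each siRNA singly. Without Dcp2 replicates 1, 2 and 3 the 427 became 98, 130 and 154, and without LOC550643 replicate 1 it became 283. Among the 25 largest rises over non-silencing siRNA, 5 also passed against the other siRNAs, and among the 25 largest falls 18 did.

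**Figure D1:**
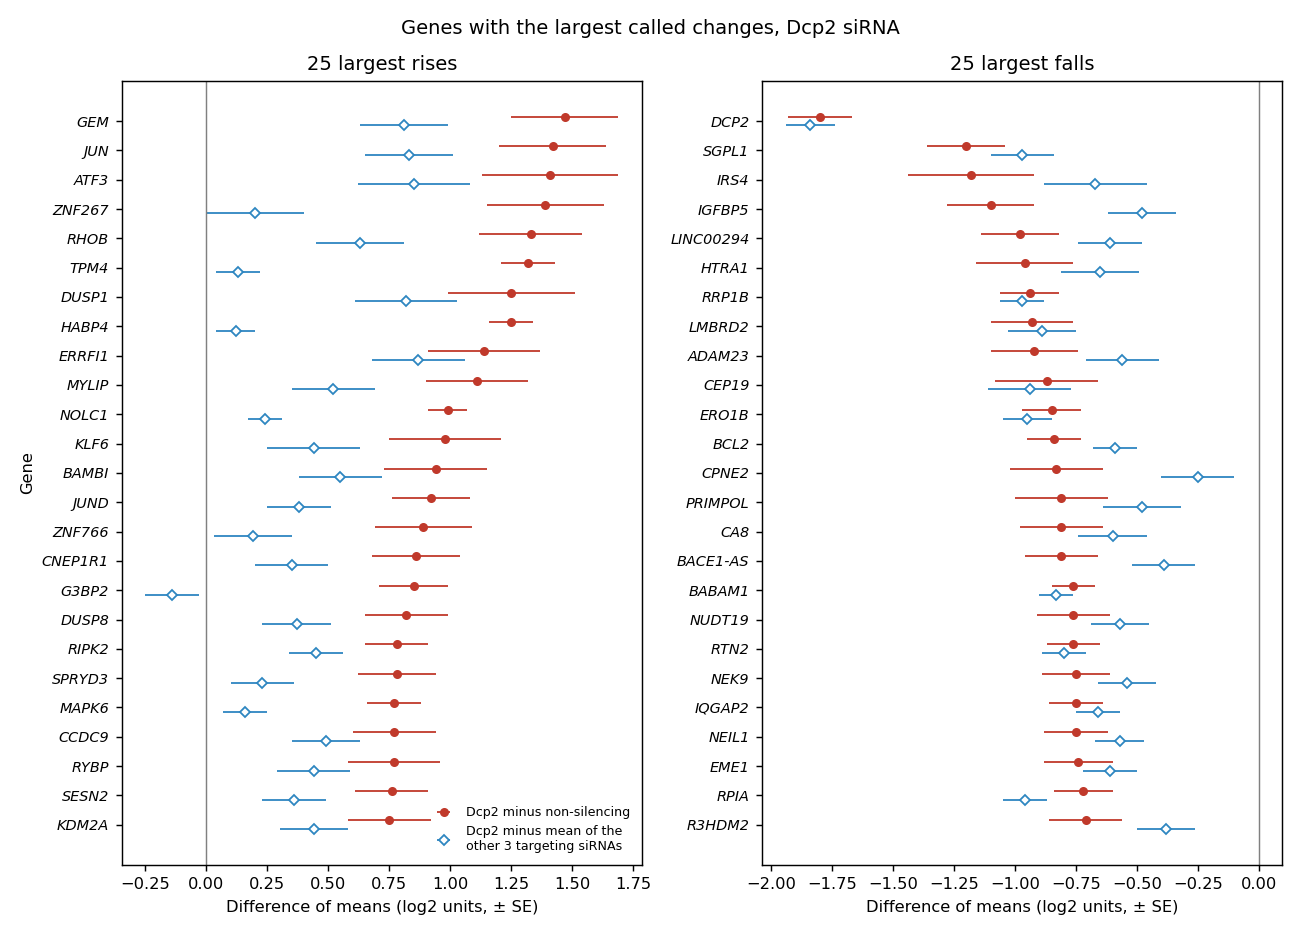
The 25 largest called rises (left) and falls (right), each gene with its difference of means in log2 units on the x axis (points) and SE (bars). Filled circles are Dcp2 minus non-silencing siRNA and open diamonds are Dcp2 minus the mean of the other 3 targeting siRNAs. For TPM4, HABP4 and G3BP2 the diamonds lie near 0 (0.13, 0.12 and -0.14), whereas for DCP2 and RRP1B the circle and diamond nearly coincide.

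Of 12 measured decapping and P-body genes, DCP2 and XRN1 fell and 0 rose, and the median difference was 0.00. The LSM ring, which binds mRNAs ready for decapping, had 0 of 8 listed genes measured. XRN1, whose product degrades decapped mRNA, was at 7.12, 7.18 and 7.31 log2 units in Dcp2 siRNA arrays, against 7.57, 7.79 and 7.53 in non-silencing arrays. The groups did not overlap, and XRN1 fell by 0.43 (SE 0.10, limma adjusted p = 0.0372). It was also lower than the mean of the other siRNAs, by a difference of -0.36 (SE 0.08, limma adjusted p = 0.0251). By single siRNA the difference of -0.50 from LOC550643 siRNA passed (limma adjusted p = 0.0117). Those of -0.26 from DcpS and -0.32 from GAPDH siRNA did not (limma adjusted p = 0.144 and 0.0976). The call against non-silencing siRNA was lost without any one of the 3 Dcp2 replicates or of non-silencing replicates 1 and 2, at adjusted p between 0.0609 and 0.147.

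EDC3, an enhancer of decapping, was at 8.76, 8.67 and 8.86 in Dcp2 siRNA arrays, against 7.67, 8.36 and 8.45 in non-silencing arrays. These groups did not overlap either, but the difference of 0.61 did not pass the test (SE 0.16, limma adjusted p = 0.067). It was 0.36 without non-silencing replicate 1 (limma adjusted p = 0.247). The partners of Dcp2 in the decapping complex, DCP1A and DCP1B, differed by 0.18 and 0.24 (limma adjusted p = 0.661 and 0.194). The scaffold EDC4 differed by -0.07, the P-body helicase DDX6 by -0.02 and the decapping activator PATL1 by 0.11, with limma adjusted p = 0.808, 0.952 and 0.673. The eIF4E transporter EIF4ENIF1 differed by -0.11 and passed no test. Other enzymes that can act on caps showed no called difference: NUDT16 differed by -0.15, NUDT3 by 0.01 and DXO by 0.08.

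**Figure D2:**
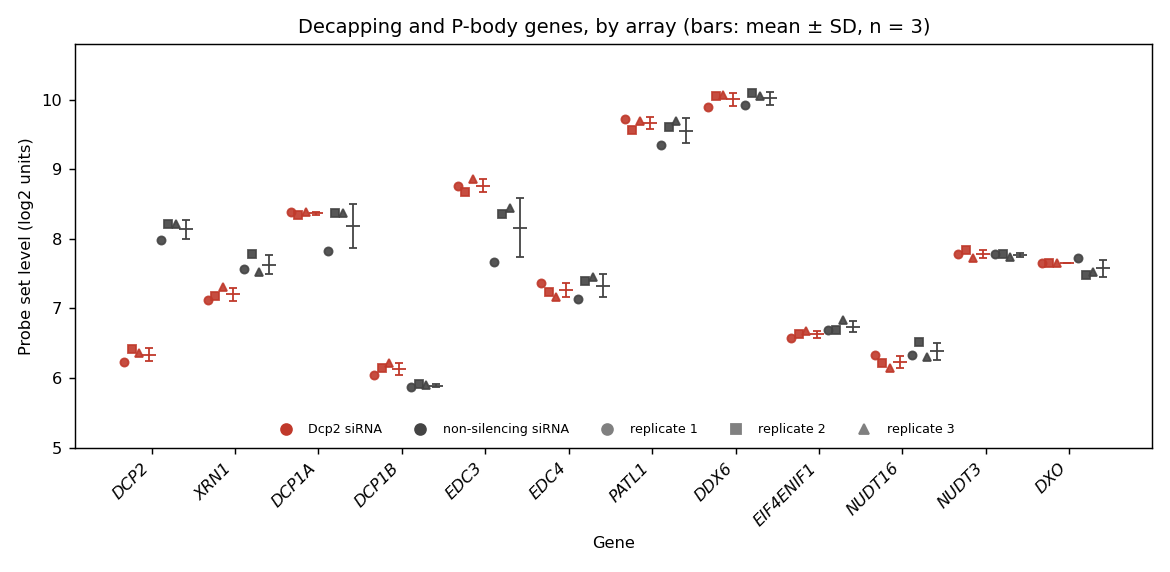
Levels of the 12 measured decapping and P-body genes in log2 units (y axis) in each Dcp2 siRNA array (red) and each non-silencing array (grey). Point shapes give the replicate number and bars the mean ± SD (n = 3). DCP2 lies near 6.3 with Dcp2 siRNA and near 8.1 with non-silencing siRNA, XRN1 shows a gap of 0.43, and in EDC3 and DCP1A the lowest point is non-silencing replicate 1.

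Neighbouring parts of mRNA decay held no called gene. None of 6 measured deadenylation factors passed, with a median difference of -0.13. PAN2, a deadenylase subunit, was lowest among them at -0.50 (limma adjusted p = 0.0577), and PARN, a poly(A) ribonuclease, differed by -0.15. Among 17 genes of the RNA exosome, which degrades RNA from its other end, 0 passed and the median was -0.08. The catalytic subunit DIS3 differed by 0.22 (limma adjusted p = 0.462). Of 7 measured factors of nonsense-mediated decay 0 passed, with differences between -0.01 and 0.19. Neither the 7 measured proteins that bind AU-rich elements nor the 6 Argonaute and microRNA silencing factors held a called gene, with medians of 0.08 and 0.13 (0.00 and -0.01 without non-silencing replicate 1). By an unadjusted p under 0.05, 2421 of all genes differed, so genes short of the adjusted threshold are not shown to be unchanged.

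Known substrates of nonsense-mediated decay, whose mRNAs are partly degraded after decapping, had mostly positive differences. Of 19 measured, 16 had a positive difference, 1 rose (ATF3) and 0 fell, and the median was 0.16. Without non-silencing replicate 1 the median was 0.23 and 0 passed. RPL12, the most highly expressed of them, differed by -0.03, and CARS1, a tRNA synthetase gene, by -0.12. Stress granule proteins, which assemble with untranslated mRNA, held 2 rises among 10 measured genes, HABP4 and G3BP2, with a list median of 0.00. UBAP2L differed by -0.02 and FMR1 by -0.41 (limma adjusted p = 0.947 and 0.0928).

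Transcripts of immediate early genes, which are induced quickly by many stimuli and mostly decay fast, made up several of the largest rises. Among 25 measured genes of that kind outside the AP-1 family, 9 rose and 0 fell. Their median difference was 0.42, and 23 were positive, beside 1.05% of genes called higher and a median of 0.001 over all genes. Among 17 AP-1 and ATF transcription factors, 3 rose and 0 fell, with a median of 0.19. Of 14 MAP kinase phosphatases and feedback inhibitors, 3 rose and 0 fell, with a median of 0.32. ERRFI1 is counted in both the first and the third list. Without non-silencing replicate 1 the numbers of rises were 2, 1 and 0 and the medians 0.24, 0.22 and 0.29. Against the other targeting siRNAs 6, 2 and 3 members of these lists were higher and 0 lower, with medians of 0.29, 0.24 and 0.26.

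Promoter sequence is shown for the members of these lists that rose and that hold a motif for the ATF/CREB or AP-1 families, to which JUN, JUND and ATF3 belong. The 250 bases before the RefSeq start site (GRCh38.p14) were searched on both strands for TGACGTCA (the cAMP response element), TGACATCA (a variant that JUN and ATF proteins bind) and TGACTCA (the AP-1 element). No motif contains another. Of the 14 genes that rose on these lists, 13 had a window in the table. TGACGTCA was in 3 of them (DUSP1, DUSP8 and JUND), against 2.74% of the 10749 array genes with a window. TGACATCA was in 3 (ATF3, JUN and KLF6), against 2.56%. TGACTCA was in 0 of the 13, against 4.68%. In all, 6 of the 13 held one of the motifs, against 9.63% of array genes. A match describes the letters and does not show a bound site. The windows of 5 of these genes follow, 5′ to 3′ in the direction of transcription and ending at the base before the start, with the motif in capitals. They come from chr1:58784048-58784297 (minus strand) for JUN, chr1:212565157-212565406 (plus) for ATF3, chr10:3785210-3785459 (minus) for KLF6, chr5:172771196-172771445 (minus) for DUSP1 and chr19:18281623-18281872 (minus) for JUND.
JUN: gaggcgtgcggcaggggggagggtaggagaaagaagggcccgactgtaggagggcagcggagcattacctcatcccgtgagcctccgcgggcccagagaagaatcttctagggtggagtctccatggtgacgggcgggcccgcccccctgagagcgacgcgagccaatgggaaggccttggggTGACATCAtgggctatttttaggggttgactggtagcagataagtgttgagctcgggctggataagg
ATF3: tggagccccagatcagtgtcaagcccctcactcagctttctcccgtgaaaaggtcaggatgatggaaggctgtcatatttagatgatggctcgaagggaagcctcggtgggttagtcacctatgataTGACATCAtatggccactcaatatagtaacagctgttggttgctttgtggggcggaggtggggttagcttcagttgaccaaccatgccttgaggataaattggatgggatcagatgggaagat
KLF6: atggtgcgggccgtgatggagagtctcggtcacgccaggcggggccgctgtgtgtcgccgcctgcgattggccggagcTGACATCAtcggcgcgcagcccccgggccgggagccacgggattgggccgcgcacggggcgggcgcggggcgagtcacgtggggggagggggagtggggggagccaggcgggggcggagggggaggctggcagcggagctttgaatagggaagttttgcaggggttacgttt
DUSP1: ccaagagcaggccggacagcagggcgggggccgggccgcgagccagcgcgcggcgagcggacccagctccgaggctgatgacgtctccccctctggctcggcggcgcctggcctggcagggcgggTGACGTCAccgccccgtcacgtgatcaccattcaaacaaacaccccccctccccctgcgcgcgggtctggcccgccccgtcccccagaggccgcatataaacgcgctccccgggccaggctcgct
JUND: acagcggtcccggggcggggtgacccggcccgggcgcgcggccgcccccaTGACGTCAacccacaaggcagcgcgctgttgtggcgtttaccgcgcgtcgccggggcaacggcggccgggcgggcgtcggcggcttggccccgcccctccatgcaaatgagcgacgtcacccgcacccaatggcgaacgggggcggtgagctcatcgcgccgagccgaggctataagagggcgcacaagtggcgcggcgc
The motif starts 67 bases before the start site in JUN, 123 in ATF3, 172 in KLF6, 125 in DUSP1 and 200 in JUND. In DUSP8 TGACGTCA occurs at 118 and again at 74 bases before the start. The search motifs and the gene lists were chosen with the gene values known. List members that did not rise were not counted apart. The shares given above therefore cannot tell a rise from membership of these lists.

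JUN, the main AP-1 subunit, rose 2.67-fold. Its levels were 11.19, 11.03 and 11.12 log2 units in Dcp2 siRNA arrays, against 9.25, 9.77 and 10.08 in non-silencing arrays. The lowest Dcp2 array lay well above the highest non-silencing one, and the difference was 1.42 (SE 0.22, limma adjusted p = 0.00732). Without non-silencing replicate 1 it was 1.19 (limma adjusted p = 0.0377), and the call was kept without each of the 6 arrays in turn. JUN was also higher than the mean of the other targeting siRNAs by 0.83 (SE 0.18, limma adjusted p = 0.0248). By single siRNA it exceeded GAPDH siRNA by 1.02 and DcpS siRNA by 0.91 (limma adjusted p = 0.0213 and 0.0251), whereas the 0.55 over LOC550643 siRNA did not pass (limma adjusted p = 0.229).

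ATF3, a stress-induced repressor of the ATF family, had 8.35, 8.32 and 8.24 log2 units in Dcp2 siRNA arrays, against 6.17, 7.12 and 7.40 in non-silencing arrays. The Dcp2 arrays were close together and the non-silencing arrays were spread over more than 1 log2 unit. ATF3 rose by 1.41 (SE 0.28, limma adjusted p = 0.023), but the 0.85 over the other siRNAs missed the threshold (SE 0.23, limma adjusted p = 0.0615). JUND, another AP-1 subunit, was at 8.89, 8.64 and 8.61 with Dcp2 siRNA, against 7.52, 7.86 and 8.0 with non-silencing siRNA. It rose by 0.92 (SE 0.16, limma adjusted p = 0.00954) and was 0.38 above the other siRNAs, which did not pass (limma adjusted p = 0.125). ATF3's call was lost without any Dcp2 replicate or without non-silencing replicates 1 or 2, at adjusted p between 0.0523 and 0.0987. JUND's was lost without Dcp2 replicate 1 or non-silencing replicate 1, at 0.055 and 0.0636.

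The other AP-1 and ATF members did not pass against non-silencing siRNA. JUNB differed by 0.70 and FOSL2 by 0.52 (limma adjusted p = 0.0884 and 0.0551). FOS, the usual partner of JUN, was at 5.63 ± 0.19 in Dcp2 siRNA arrays and 5.44 ± 0.23 in non-silencing arrays (SD, n = 3 each), close to the median gene level of 5.47. Its second probe set differed by -0.04, while the one used here differed by 0.19. FOSB differed by 0.11 and FOSL1 by -0.14. ATF4, the translationally controlled factor of the integrated stress response, differed by 0.24 from non-silencing siRNA (limma adjusted p = 0.138) and was 0.28 above the other siRNAs (limma adjusted p = 0.0343). CREB1, CREM, ATF2, ATF6, MAFF and JDP2 differed by between -0.02 and 0.14, and MAFG and ATF5 by 0.34 and 0.19.

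GEM had the largest rise of all genes named by the rule. It encodes a small GTPase of the RGK family that dampens calcium channels. Its levels were 6.27, 6.18 and 6.48 log2 units with Dcp2 siRNA, against 4.31, 4.72 and 5.48 with non-silencing siRNA. The lowest Dcp2 array was above the highest non-silencing one, and the difference was 1.47 (SE 0.22, limma adjusted p = 0.00521), or 2.78-fold. Without non-silencing replicate 1 it was 1.21 (limma adjusted p = 0.0253), and with the 6 arrays fitted alone the call was lost (limma adjusted p = 0.0512). GEM was 0.81 above the mean of the other targeting siRNAs (SE 0.18, limma adjusted p = 0.0267), which sat at 5.58 ± 0.28 for LOC550643, 5.39 ± 0.23 for DcpS and 5.55 ± 0.11 for GAPDH siRNA (SD, n = 3 each).

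RHOB, a short-lived small GTPase of endosomes, was at 10.17, 9.96 and 10.18 log2 units with Dcp2 siRNA, against 8.33, 8.91 and 9.08 with non-silencing siRNA. It rose by 1.33 (SE 0.21, limma adjusted p = 0.00788) and kept its call without each of the 6 arrays in turn, but the 0.63 over the other siRNAs missed the threshold (SE 0.18, limma adjusted p = 0.0654). In RHOB too the groups did not overlap, and non-silencing replicate 1 was the lowest array.

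Of the 14 measured MAP kinase phosphatases and feedback inhibitors, DUSP1, ERRFI1 and DUSP8 rose. DUSP1, a phosphatase that switches off MAP kinases in the nucleus, had 9.08, 8.90 and 8.89 log2 units with Dcp2 siRNA, against 7.12, 7.93 and 8.07 with non-silencing siRNA. It rose by 1.25 (SE 0.26, limma adjusted p = 0.0241) and was 0.82 above the other siRNAs (SE 0.21, limma adjusted p = 0.0449). ERRFI1, an inhibitor of the EGF receptor, had 8.58, 8.45 and 8.51 with Dcp2 siRNA, against 6.89, 7.5 and 7.75 with non-silencing siRNA. Its rise was 1.14 (SE 0.23, limma adjusted p = 0.0244), and it was 0.87 above the other siRNAs (SE 0.19, limma adjusted p = 0.0226). In both genes the groups did not overlap and non-silencing replicate 1 was the lowest array. DUSP8, a phosphatase of stress-activated kinases, rose by 0.82 (SE 0.17, limma adjusted p = 0.0291). Without non-silencing replicate 1 the differences of DUSP1, ERRFI1 and DUSP8 were 0.96, 0.89 and 0.61, with limma adjusted p = 0.111, 0.122 and 0.136. Their calls were also lost without any one Dcp2 replicate, and for DUSP1 and ERRFI1 without non-silencing replicate 2. DUSP2 and DUSP3 differed by -0.29 and 0.19 and did not pass. Of 13 measured genes of the kinase cascade itself 0 passed, with a median of -0.05.

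**Figure D3:**
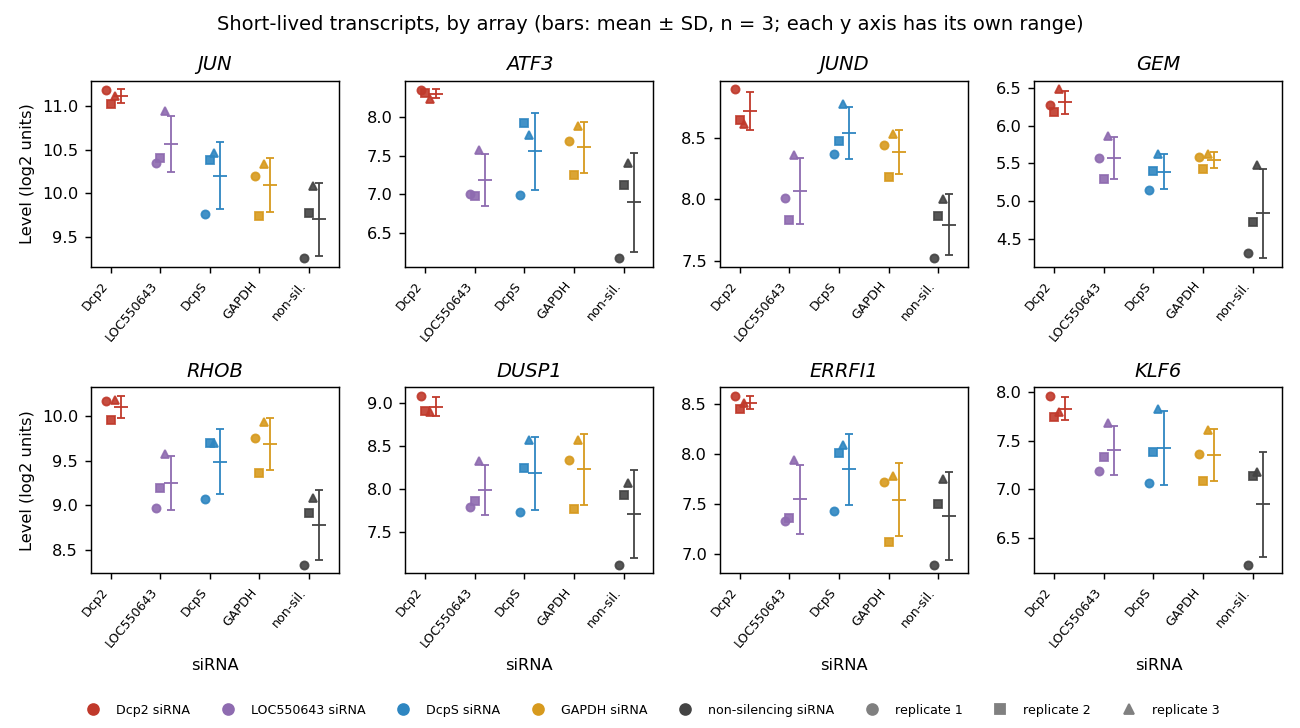
Levels of 8 short-lived transcripts in log2 units (y axis, own range in each panel) in every array, by siRNA on the x axis. Point shapes give the replicate number and bars the mean ± SD (n = 3). The 3 Dcp2 siRNA arrays lie above all non-silencing arrays in each panel, the other targeting siRNAs mostly lie between, and non-silencing replicate 1 is the lowest of its group throughout.

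Other rises of the same kind were smaller or less stable. KLF6, a zinc finger factor, rose by 0.98 (SE 0.23, limma adjusted p = 0.0425) and KLF5 by 0.57 (SE 0.14, limma adjusted p = 0.0458). MYLIP, a ubiquitin ligase that degrades the LDL receptor, rose by 1.11 (SE 0.21, limma adjusted p = 0.0181). PLK3, a stress-responsive kinase, rose by 0.53 (SE 0.10, limma adjusted p = 0.0199) and was 0.46 above the other siRNAs (limma adjusted p = 0.00888). Each of these calls was lost without non-silencing replicate 1 (limma adjusted p = 0.185, 0.215, 0.0647 and 0.102, in the order given) and without at least 2 of the Dcp2 replicates. In the same list KLF2 differed by -0.13 and ODC1, the first enzyme of polyamine synthesis, by 0.13.

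RIPK2, a kinase that signals from NOD receptors, rose by 0.78 (SE 0.13, limma adjusted p = 0.0089) and was 0.45 above the other siRNAs (SE 0.11, limma adjusted p = 0.0329). Its levels were 7.24, 7.45 and 7.39 log2 units with Dcp2 siRNA, against 6.54, 6.52 and 6.68 with non-silencing siRNA. The groups were well separated, and the call held without each array in turn. With LOC550643 siRNA RIPK2 was at 6.59 ± 0.21 (SD, n = 3), and the difference of Dcp2 siRNA from it was 0.77 (limma adjusted p = 0.00441), whereas those from DcpS and GAPDH siRNA, 0.22 and 0.35, did not pass (limma adjusted p = 0.388 and 0.181). MIR3143, a microRNA gene whose probe set rose by 1.08 (SE 0.19, limma adjusted p = 0.0101), was 0.85 above the other siRNAs (limma adjusted p = 0.00746). Its call was lost without Dcp2 replicate 1 or non-silencing replicate 1, at 0.0622 and 0.0647.

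A further set of rises over non-silencing siRNA showed no called difference from the other targeting siRNAs. HABP4, an RNA-binding protein found in stress granules, was at 7.76, 7.81 and 7.73 log2 units with Dcp2 siRNA, against 6.52, 6.64 and 6.40 with non-silencing siRNA. It rose by 1.25 (SE 0.09, limma adjusted p = 3.78e-06). Against the mean of the other siRNAs, 7.64, its difference was 0.12 (SE 0.08, limma adjusted p = 0.464), though it was 0.44 above DcpS siRNA (limma adjusted p = 0.00916). TPM4, a tropomyosin of actin filaments, was at 8.93, 8.86 and 8.77 with Dcp2 siRNA, against 7.35, 7.49 and 7.76 with non-silencing siRNA. Its difference was 1.32 from non-silencing siRNA (SE 0.11, limma adjusted p = 1.29e-05) and 0.13 from the other siRNAs (SE 0.09, limma adjusted p = 0.55). TPM4 was the single rise among 13 actin cytoskeleton genes, where PFN1 differed by -0.02 and TPM2 by -0.13.

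NOLC1, a nucleolar chaperone of small nucleolar RNPs, was at 8.95, 8.90 and 8.94 log2 units with Dcp2 siRNA, against 7.92, 7.85 and 8.04 with non-silencing siRNA. It rose by 0.99 (SE 0.08, limma adjusted p = 8.44e-06). The difference from the other siRNAs was 0.24 (SE 0.07, limma adjusted p = 0.0667), made up of 0.64 over GAPDH siRNA (limma adjusted p = 0.000406) and of 0.09 and -0.03 against LOC550643 and DcpS siRNA. G3BP2, a core stress granule protein, rose by 0.85 (SE 0.14, limma adjusted p = 0.00887) and lay at -0.14 from the other siRNAs (limma adjusted p = 0.605). MAPK6, an atypical MAP kinase with a short-lived protein, rose by 0.77 (SE 0.11, limma adjusted p = 0.0045) and lay 0.16 above them (limma adjusted p = 0.443). ZNF267, a zinc finger gene, rose by 1.39 (SE 0.24, limma adjusted p = 0.0101) and lay 0.20 above them (limma adjusted p = 0.688). HABP4, TPM4, NOLC1, G3BP2 and MAPK6 kept their calls without each of the 6 arrays in turn. ZNF267 lost its call without Dcp2 replicate 1 or non-silencing replicate 1, at 0.0522 and 0.0647. With the 6 arrays fitted alone G3BP2 and MAPK6 missed the threshold (limma adjusted p = 0.0592 and 0.0512).

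Zinc finger genes as a whole were counted because several stood among the rises. Of 509 measured genes with ZNF or ZFP symbols 6 rose and 1 fell, with a median of 0.05, beside 1.05% and 0.927% of all genes. ZNF622, which is also a ribosome maturation factor, rose by 0.73 (SE 0.12, limma adjusted p = 0.00887). It was the only one of the 6 to stay called without each array in turn. With the 6 arrays of the comparison fitted alone it missed the threshold (limma adjusted p = 0.0512). ZNF766, ZNF823, ZNF410 and ZNF57 rose by 0.89, 0.60, 0.52 and 0.45 (limma adjusted p = 0.0328, 0.0202, 0.047 and 0.0432). These 4 lost their calls without any one Dcp2 replicate or without non-silencing replicate 1, at adjusted p between 0.0525 and 0.204. ZNF121, the most highly expressed, differed by 0.19.

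Several remaining rises were close to the threshold. SESN2, a stress-induced regulator of mTORC1, rose by 0.76 (SE 0.15, limma adjusted p = 0.0241) and was the single rise among 11 genes of the integrated stress response, whose median was 0.24. Against the other siRNAs 3 members of that list were higher, one of them DDIT4, an mTORC1 inhibitor, which was 0.80 above them (SE 0.17, limma adjusted p = 0.0171) and 0.72 above non-silencing siRNA (limma adjusted p = 0.0794). PSAT1 and PHGDH, serine synthesis enzymes of the same list, differed by -0.13 and -0.23. BAMBI, a decoy receptor of TGF-beta signalling, rose by 0.94, CNEP1R1, a subunit of a nuclear envelope phosphatase, by 0.86 and SPRYD3 by 0.78. RYBP, a Polycomb component, and KDM2A, a histone demethylase, rose by 0.77 and 0.75, and CCDC9, an RNA-binding protein, by 0.77. The limma adjusted p of these 7 genes that rose lay between 0.0241 and 0.0494, and without non-silencing replicate 1 between 0.111 and 0.231. Their calls were also lost without non-silencing replicate 2 and without at least 2 Dcp2 replicates. Their differences stayed positive with each array left out, from a lowest value of 0.53 for KDM2A to a highest of 1.09 for BAMBI.

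Among the falls that were also called against the other siRNAs, SGPL1 was the largest after DCP2. SGPL1, which cleaves sphingosine 1-phosphate in the last step of sphingolipid breakdown, was at 5.25, 5.63 and 5.87 log2 units with Dcp2 siRNA, against 6.91, 6.84 and 6.60 with non-silencing siRNA. The highest Dcp2 array lay below the lowest non-silencing one, and 43.4% of the level remained. SGPL1 fell by 1.20 (SE 0.16, limma adjusted p = 0.002) and was lower than with the other siRNAs by a difference of -0.97 (SE 0.13, limma adjusted p = 0.0013). It was lower than with each of them, by differences of -1.24 from LOC550643, -0.99 from DcpS and -0.69 from GAPDH siRNA (limma adjusted p = 0.000531, 0.0016 and 0.0256). SGPL1 was the single called gene among 22 of sphingolipid metabolism, whose median was 0.01. The ceramide synthase CERS6 differed by 0.01 and the receptor S1PR1 by 0.40 (limma adjusted p = 0.985 and 0.0993).

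RRP1B, a nucleolar protein of ribosome assembly, was at 7.94, 7.88 and 7.99 log2 units with Dcp2 siRNA, against 8.98, 8.92 and 8.74 with non-silencing siRNA. It fell by 0.94 (SE 0.12, limma adjusted p = 0.00137), and its difference from the other siRNAs was -0.97 (SE 0.09, limma adjusted p = 7.09e-05). The 4 groups without Dcp2 siRNA had means between 8.86 and 8.93. RRN3, an initiation factor of RNA polymerase I, fell by 0.54 (SE 0.13, limma adjusted p = 0.0382), a call that was lost without any Dcp2 replicate or non-silencing replicates 1 or 2, at adjusted p between 0.0577 and 0.15. Of 22 ribosome biogenesis genes these 2 fell and NOLC1 rose, with a median of -0.06. The methyltransferase FBL differed by -0.01 and NOP16 by 0.56 (limma adjusted p = 0.977 and 0.0508).

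ERO1B, which oxidises the disulfide isomerase of the endoplasmic reticulum, was at 5.70, 5.84 and 6.03 log2 units with Dcp2 siRNA, against 6.76, 6.70 and 6.65 with non-silencing siRNA. It fell by 0.85 (SE 0.12, limma adjusted p = 0.00418), with a difference of -0.95 from the other siRNAs (SE 0.10, limma adjusted p = 0.000115). The groups did not overlap. Among 11 cytosolic and reticulum chaperone genes CALR, a calcium-binding chaperone, rose by 0.55 (SE 0.10, limma adjusted p = 0.0111), a call lost without non-silencing replicate 1 (limma adjusted p = 0.0647). The heat shock gene HSPA1B, a near-identical copy of another gene whose transcripts the array may not tell apart, differed by 0.71 (limma adjusted p = 0.0757), and its 5 probe sets by 0.66 to 0.80.

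RPIA, ribose 5-phosphate isomerase of the pentose phosphate pathway, was at 6.42, 6.72 and 7.0 log2 units with Dcp2 siRNA, against 7.42, 7.48 and 7.40 with non-silencing siRNA. It fell by 0.72 (SE 0.12, limma adjusted p = 0.00788), and its difference from the other siRNAs was -0.96 (SE 0.09, limma adjusted p = 7.09e-05). BABAM1, a subunit of the BRCA1-A complex at DNA breaks, was at 8.12, 8.07 and 8.04 with Dcp2 siRNA, against 8.92, 8.77 and 8.80 with non-silencing siRNA. It fell by 0.76 (SE 0.09, limma adjusted p = 0.00106), with a difference of -0.83 from the other siRNAs (SE 0.07, limma adjusted p = 4.75e-05). RTN2, a reticulon that shapes the endoplasmic reticulum, and IQGAP2, a scaffold of Rac and Cdc42 signalling, fell by 0.76 and 0.75 (limma adjusted p = 0.00491 and 0.00598). Both were also lower than with the other siRNAs, by differences of -0.80 and -0.66 (limma adjusted p = 0.000315 and 0.00178). SGPL1, RRP1B, ERO1B, RPIA, BABAM1, RTN2 and IQGAP2 each kept the call against non-silencing siRNA without each of the 6 arrays in turn. With the 6 arrays fitted alone RPIA and RTN2 missed the threshold (limma adjusted p = 0.0646 and 0.0569).

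BCL2, the founding inhibitor of mitochondrial apoptosis, was at 5.23, 5.31 and 5.03 log2 units with Dcp2 siRNA, against 6.06, 6.13 and 5.91 with non-silencing siRNA. The groups were apart by more than either spread, and BCL2 fell by 0.84 (SE 0.11, limma adjusted p = 0.00237). Its difference was -0.78 from LOC550643 and -0.79 from GAPDH siRNA (limma adjusted p = 0.0015 and 0.00112). DcpS siRNA gave 5.37 ± 0.14 (SD, n = 3), and the difference of -0.18 from it did not pass (SE 0.11, limma adjusted p = 0.422). BAK1, which opposes BCL2, rose by 0.48 (SE 0.11, limma adjusted p = 0.0328), a call lost without any Dcp2 replicate or non-silencing replicates 1 or 2, at adjusted p between 0.0773 and 0.162. The other 12 of the 14 measured BCL2 family genes did not pass, and the family's median was -0.01. Among them PMAIP1, also a p53 target, differed by -0.16.

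CDK2, the kinase of S phase entry, was at 9.09, 9.08 and 8.99 log2 units with Dcp2 siRNA, against 9.56, 9.68 and 9.79 with non-silencing siRNA. It fell by 0.63 (SE 0.09, limma adjusted p = 0.0045) and was lower than with the other siRNAs by a difference of -0.48 (SE 0.08, limma adjusted p = 0.004). The call held without each array in turn. Among 29 G1 and S phase genes TYMS, thymidylate synthase, also fell, by 0.62, while CDC25A, the phosphatase that activates CDK2, and its partner CCNE1 rose by 0.61 and 0.48 (limma adjusted p = 0.0281, 0.0241 and 0.0395). The last 3 calls were lost without any one Dcp2 replicate or non-silencing replicates 1 or 2, at adjusted p between 0.0537 and 0.137, and CCNE1's also without non-silencing replicate 3. Against the other siRNAs TYMS, CDC25A and CCNE1 did not pass, at limma adjusted p = 0.179, 0.0911 and 0.0569. MCM3, the most abundant gene of the list, differed by -0.02, and the list median was -0.02.

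Genes of G2 and M phase mostly had small positive differences. Of 28 measured, 25 had a positive difference, and the median was 0.20, but only CDC20, an activator of the anaphase-promoting complex, rose, by 0.43 (SE 0.10, limma adjusted p = 0.0348). That call was lost without any Dcp2 replicate or non-silencing replicates 1 or 2, at adjusted p between 0.0782 and 0.168. Without non-silencing replicate 1 the list median was 0.12, and against the other siRNAs it was 0.06 with 0 genes called. CKS2, the most abundant member, differed by 0.36 and HMMR by -0.26.

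**Figure D4:**
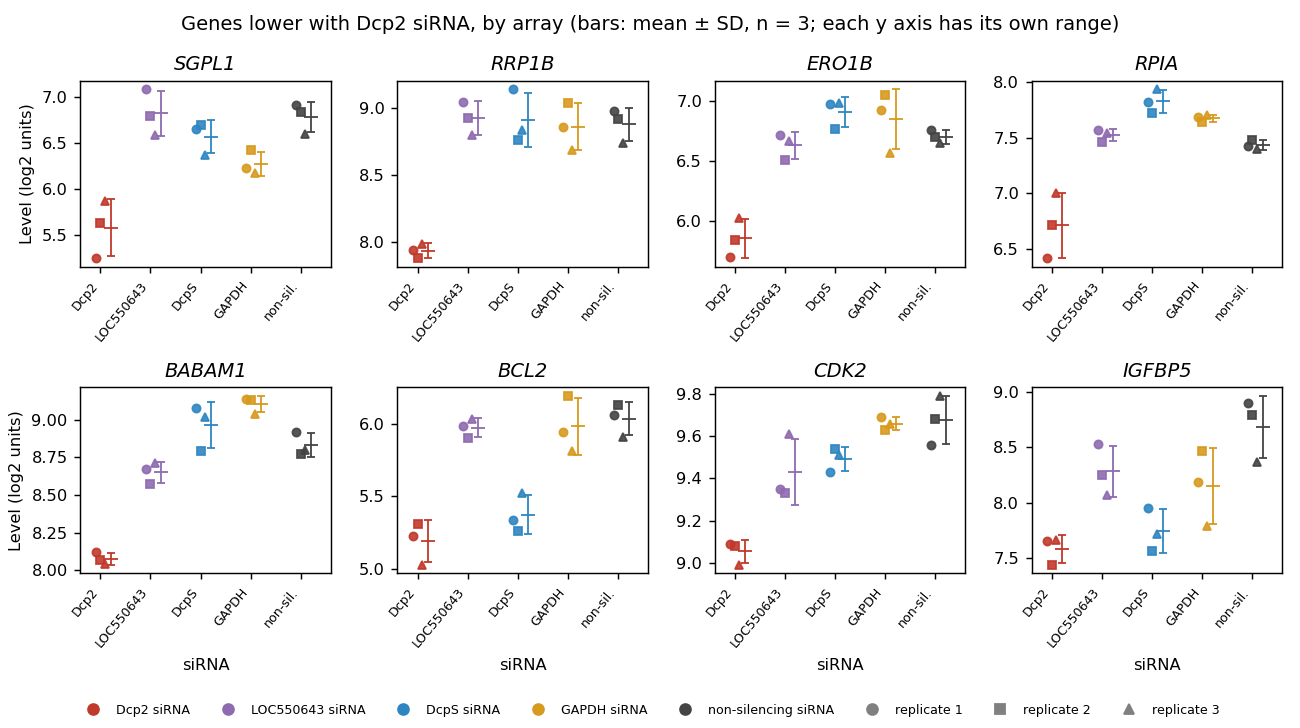
Levels of 8 genes that fell, in log2 units (y axis, own range in each panel), in every array by siRNA on the x axis. Point shapes give the replicate number and bars the mean ± SD (n = 3). For SGPL1, RRP1B, ERO1B, RPIA, BABAM1 and CDK2 the 3 Dcp2 siRNA arrays lie below all arrays of the other 4 groups, whereas for BCL2 and IGFBP5 the DcpS siRNA arrays lie close to them.

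Insulin and IGF signalling held 3 falls and 0 rises among 20 measured genes, with a median of 0.03. Over all genes 0.927% fell and 1.05% rose. IRS4, the insulin receptor substrate abundant in HEK293 cells and a marker of the line, was at 8.12, 8.19 and 8.48 log2 units with Dcp2 siRNA, against 9.78, 9.50 and 9.05 with non-silencing siRNA. It fell by 1.18 (SE 0.26, limma adjusted p = 0.0307). IGFBP5, a binding protein of IGFs, was at 7.65, 7.44 and 7.66 with Dcp2 siRNA, against 8.90, 8.79 and 8.37 with non-silencing siRNA. It fell by 1.10 (SE 0.18, limma adjusted p = 0.00732) and held without each array in turn. HTRA1, a secreted protease that cleaves IGF binding proteins, fell by 0.96 (SE 0.20, limma adjusted p = 0.0241).

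Against the other siRNAs HTRA1 passed, with a difference of -0.65 (limma adjusted p = 0.0396), whereas IRS4 and IGFBP5 did not, at -0.67 and -0.48 (limma adjusted p = 0.10 and 0.0886). IGFBP5 was at 7.74 ± 0.20 with DcpS siRNA (SD, n = 3). The calls of IRS4 and HTRA1 were lost without any Dcp2 replicate or non-silencing replicates 1 or 2, at adjusted p between 0.0537 and 0.15. The receptors INSR and IGF1R differed by -0.08 and 0.00, the substrates IRS1 and IRS2 by 0.10 and 0.05, and the kinases AKT1, AKT2 and PDPK1 by -0.08, 0.09 and -0.12. The adaptor GRB2 differed by 0.18 from non-silencing siRNA and was 0.65 above the other siRNAs (limma adjusted p = 0.584 and 0.00536). FOXO1 and FOXO3, the transcription factors that AKT restrains, differed by 0.29 and 0.30 (limma adjusted p = 0.181 and 0.158).

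Other large falls were in genes of varied function. NEIL1, a glycosylase of oxidised bases, and EME1, a subunit of a structure-specific endonuclease, fell by 0.75 and 0.74 (limma adjusted p = 0.00954 and 0.0142), and the second probe set of EME1 differed by -0.29. NEK9, a mitotic kinase, fell by 0.75, LMBRD2, a membrane protein, by 0.93 and CEP19, a centrosome and cilium protein, by 0.87 (limma adjusted p = 0.0172, 0.013 and 0.044). CA8, a carbonic anhydrase-related protein, and NUDT19, a hydrolase of coenzyme A, fell by 0.81 and 0.76, and the noncoding LINC00294 by 0.98 (limma adjusted p = 0.0249, 0.019 and 0.0089). All 8 were also lower than the mean of the other siRNAs, by differences from -0.54 for NEK9 to -0.94 for CEP19. Against GAPDH siRNA alone none of them passed, at limma adjusted p from 0.0854 for NEIL1 to 0.587 for NEK9. LINC00294 did not pass against LOC550643 siRNA either, with a difference of -0.27 (limma adjusted p = 0.467). Nor did CA8 and NUDT19 pass against DcpS siRNA, with differences of -0.32 and -0.31 (limma adjusted p = 0.316 and 0.272). NEIL1 lost its call only without non-silencing replicate 2 (limma adjusted p = 0.051) and LINC00294 only without non-silencing replicate 1 (limma adjusted p = 0.0548). The other 6 lost it without Dcp2 replicate 1 or non-silencing replicate 1, among other arrays, at adjusted p up to 0.216.

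ADAM23, a brain adhesion protein, was the single fall among 11 cadherins, ADAMs and adhesion molecules, by 0.92 (SE 0.18, limma adjusted p = 0.0202). CPNE2, a calcium-dependent lipid-binding protein, fell by 0.83, PRIMPOL, a primase and polymerase of stalled forks, by 0.81 and R3HDM2 by 0.71 (limma adjusted p = 0.0348, 0.0395 and 0.0283). BACE1-AS, the antisense RNA of BACE1, fell by 0.81 (limma adjusted p = 0.0177). None of these 5 passed against the other siRNAs, at limma adjusted p between 0.0577 and 0.462. Their calls were lost without Dcp2 replicates 1 or 2 or non-silencing replicates 1 or 2, at adjusted p up to 0.198.

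A few genes differed more from the mean of the other targeting siRNAs than from non-silencing siRNA. LIX1L, an RNA-binding protein, was 0.77 above the mean of the others (SE 0.07, limma adjusted p = 7.09e-05) and 0.22 above non-silencing siRNA (limma adjusted p = 0.225). Its mean levels were 8.97 with Dcp2 siRNA, 7.64 with LOC550643, 8.13 with DcpS, 8.83 with GAPDH and 8.75 with non-silencing siRNA, and the 0.14 over GAPDH siRNA did not pass (limma adjusted p = 0.507). RASSF3, a Ras association domain protein, was 0.79 above the others (SE 0.09, limma adjusted p = 0.000176) and rose by 0.46 over non-silencing siRNA (SE 0.11, limma adjusted p = 0.0389), a call lost without any one of the 6 arrays. RECK, a membrane inhibitor of metalloproteinases, was below the others by a difference of -0.85 (SE 0.14, limma adjusted p = 0.00423) and differed by -0.57 from non-silencing siRNA (limma adjusted p = 0.088).

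The remaining lists held few or no calls against non-silencing siRNA. Type I interferon response genes, often raised by foreign RNA in cells, had 0 of 23 called and a median of -0.10 (-0.04 without non-silencing replicate 1), with RIGI at -0.46 and IFITM2 at -0.08. There were 0 called among 13 YAP and TEAD targets, 16 TGF-beta and BMP genes, 12 cholesterol synthesis genes and 5 alpha-arrestins. Their medians were 0.07, 0.09, -0.10 and 0.06, and without non-silencing replicate 1 that of the cholesterol synthesis genes was -0.23. AMOT, a YAP regulator, differed by -0.76, and TXNIP, an alpha-arrestin that limits glucose uptake, by 0.69 (limma adjusted p = 0.0589 and 0.0569). Of 11 p53 targets 2 rose, SESN2 and PLK3, with a median of 0.07 and TP53INP1 at -0.48, and 0 passed without non-silencing replicate 1. Among markers of other cell types 1 of 18 was called: the blood cell marker CD68, which many cells carry in lysosomes, rose by 0.47 (limma adjusted p = 0.0349), a call lost without any one of the 6 arrays and with those arrays fitted alone.

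**Figure D5:**
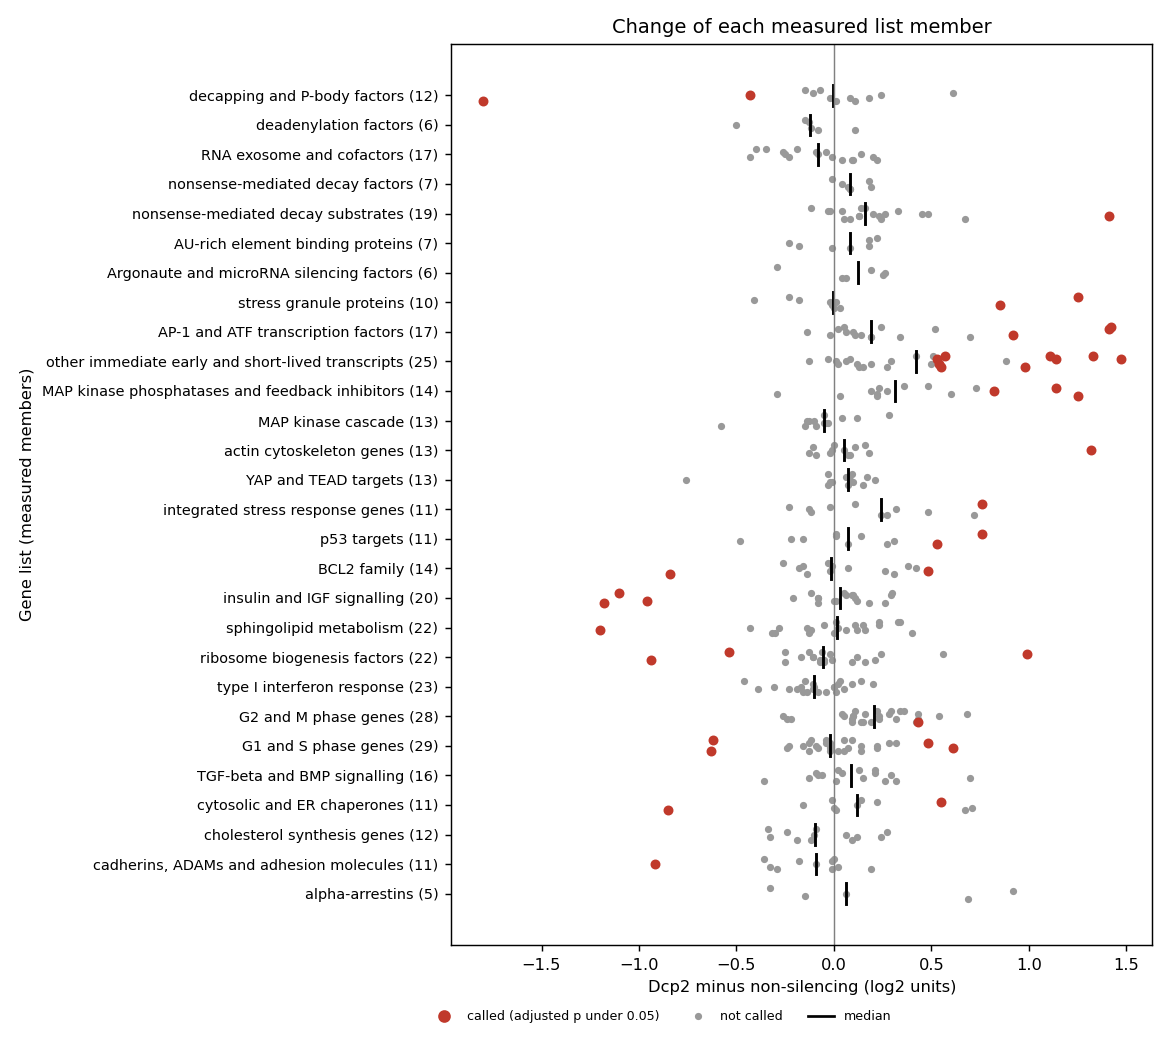
Differences of Dcp2 minus non-silencing siRNA in log2 units (x axis) for each measured member of 28 gene lists (rows, with the number measured). Red points passed at an adjusted p under 0.05, grey points did not, and black bars are list medians. The list of other immediate early and short-lived transcripts has the rightmost median at 0.42, and the medians of the decay machinery lie between -0.13 and 0.13.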

How the data were processed

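Total RNA of 15 HEK293T samples (5 siRNA groups of 3) was hybridised to Affymetrix whole-transcript arrays, per the labels. The deposited values were on a log2 scale, the base being inferred from their range. Per the submitters' processing notes, RMA and the oligo package were used, so a shift of all transcripts cannot be seen. Versions, genome build and detection calls: not given in the sources used here. Precision is limited by the number of arrays.

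Of 53617 probe sets 16098 had 1 gene symbol in the platform annotation, 0 had several and 37519 had none, and all 16098 matched a current symbol. For 779 genes with several, the one brightest on average over the 15 arrays was kept, leaving 14884 genes. Limma 3.58.1 (R 4.3.3) fitted 1 mean per group to all 15 arrays (10 residual degrees of freedom), with two-sided moderated tests and Benjamini-Hochberg adjustment over the 14884 genes. It was tested on simulated data.

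Named genes are DCP2, the 25 largest called changes in each direction with groups that do not overlap (small RNAs and olfactory receptors left out), up to 6 called members of each list, and the 8 largest in each direction against the other siRNAs. Uncalled members are named as the most abundant or most opposed of a list, or from the decapping, AP-1 and insulin lists. CD68 was named after its value was seen. The comparison, the 31 gene lists and the named-gene rule were chosen with earlier results of these data known. Lists are described by counts and medians, without a test, and 1 list is not reported here. Same-numbered Dcp2 and non-silencing replicates did not deviate together (r = -0.065, 0.065 and -0.162), so samples were not paired. Replicates of the other groups were not checked in this way, and whether replicate number carries variation shared across groups was not tested. With replicate number in the fit 436 genes were called instead of 294. Promoter windows are RefSeq's. Alternatives were the replicate block, the compared groups alone, median centring, quantile normalization, dim genes left out, the mean of probe sets, trend and robust variance, array weights and leaving out each array. The siRNA sequences were not used here.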

Additional observations from a re-analysis of the deposited data

How the results depend on the processing

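DCP2 stayed called under all 14 alternative settings, with differences from -1.75 to -1.88 when single arrays were left out. The 294 genes called against non-silencing siRNA became 39 with the 6 arrays alone, 684 with dim genes left out, 487 with array weights, and 41 to 393 with single arrays left out. The 156 rises became 242 with the replicate block, 21, 355 and 247 with the 6 arrays alone, dim genes left out and array weights, and 23 to 208 with single arrays left out. The 138 falls became 18, 329 and 240 with those same settings, and 18 to 185 with single arrays left out. The 427 genes called against the other siRNAs became 723 with dim genes left out, 751 with array weights, and 98 to 527 with single arrays left out. Leaving out arrays of the other siRNAs, and singling out non-silencing replicate 1, were chosen after seeing the data.

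Samples were not paired by replicate number in the main fit, and whether that number marks a batch was not tested. With the replicate block 436 genes were called against non-silencing siRNA (194 falls), 481 against the other siRNAs, and DCP2 stayed at -1.80. The other counts were within 1.5 times (289 to 417 against non-silencing siRNA). No result reversed. Of 66 named called genes, 44 missed the threshold with the 6 arrays alone, which leave 4 residual degrees of freedom. From 3 to 45 missed it without one array, 2 (CDC20 and CALR) under quantile normalization, and ZNF57 with the mean of probe sets, at an adjusted p of 0.157. All 66 passed under the replicate block, median centring, trend and robust variance, and array weights, as did the 64 still tested with dim genes left out. The cause of these shifts was not tested, except that fewer genes or arrays entered some fits. The median difference over all genes was 0.0013 as deposited, 0.0197 with median centring and -1e-04 with quantile normalization.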
